A study of Mus musculus with 12 samples.

Results

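Fibroblast growth factors (FGFs) and their receptors were followed in RNA-seq of the neonatal mouse hippocampus, as 10 genes chosen by name out of the 29454 rows of the deposited expression table. They were 4 secreted ligands (Fgf1, Fgf2, Fgf9, Fgf10), 3 receptors (Fgfr1, Fgfr2, Fgfr3) and 3 intracellular FGFs (Fgf12, Fgf13, Fgf14), and each symbol was taken from the row with the highest mean where it repeated. The values are FPKM, fragment counts divided by transcript length and by library size, a level per length, so levels could be set beside each other between genes. The 12 libraries were total RNA depleted of ribosomal RNA from the hippocampus of C57/BL6 mice, in 3 groups of littermates at postnatal day 4 per the sample labels (the series' design text gives postnatal day 0). WT carried neither transgene (n = 3). CAMK carried the driver CaMKIIα-tTA, a tetracycline transactivator under the promoter of a kinase of forebrain excitatory neurons (n = 3). CX3CL1-ct carried that driver together with Tg-CX3CL1-ct, a transgene that encodes the C-terminal end of CX3CL1, a chemokine anchored in the membrane, whose line had been backcrossed for 6 generations (n = 6). CX3CL1-ct against CAMK therefore compared mice with and without the chemokine transgene on the same driver, CAMK against WT compared mice with and without the driver, and CX3CL1-ct against WT held both differences. How many founder lines were used, and whether a library was 1 animal, is not given in the sources used here, so p-values measure the spread between these libraries, which may be technical.

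Secreted FGFs bind cell-surface receptor tyrosine kinases together with heparan sulphate, and the receptors signal through adaptor proteins to the RAS and MAP kinase cascade, whose target genes include several feedback inhibitors. In the developing forebrain this pathway is known for keeping neural progenitors dividing and for patterning the cortex and hippocampus. The intracellular FGFs share the FGF fold but are not secreted, and are known as partners of voltage-gated sodium channels in neurons.

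Some facts of the whole series bear on every member. The libraries held an estimated 11800000 to 16000000 fragments, and 16503 genes reached an FPKM of 1 in at least 3 libraries and were tested. The tests were linear models (limma) on log2(FPKM + 1), with Benjamini-Hochberg adjustment over those genes and a threshold of 0.05. On that scale differences of low genes are understated. The gene Cx3cl1 itself stood at 40.6 ± 1.89 FPKM in WT (SD, n = 3), 38.2 ± 3.46 in the CAMK mice (n = 3) and 38.6 ± 5.49 in the CX3CL1-ct mice (n = 6), so its level did not separate the transgenic libraries, and whether reads of the transgene were counted there is not given. Of 8 genes used as markers of hippocampal neurons none was at 0 in any group. They were Zbtb20, Prox1, Neurod1, Neurod2, Neurod6, Tbr1, Fezf2 and Rbfox3. Their mean log2 level was 3.69 in CX3CL1-ct 5 against 4.32 to 5.10 in the other 11 libraries. These 8 did not move as one. In CAMK against WT 4 had positive and 4 negative differences, none past the threshold. Without overlap, 2 of the 8 lay below WT, as did 8.80 percent of all tested genes. These were Zbtb20, which spanned 60.0 to 65.8 FPKM among WT libraries and 34.3 to 36.4 among CAMK libraries, and Prox1 (10.6 to 14.9 and 7.32 to 10.5). In CX3CL1-ct against WT 5 of the 8 had positive differences. Zbtb20 (24.7 to 57.2) again lay below WT without overlap there, as did 227 of the 16503 tested genes. Libraries CX3CL1-ct 1 to 3 were more alike than any other replicates, with a median absolute log2 difference of 0.0800 to 0.0964 in their 3 pairs against 0.112 to 0.210 in the other 18 pairs within a group.

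The members covered a wide range of levels and kept much the same order in each group. Fgf13 had the highest mean, at 57.5 ± 7.86 FPKM in WT (SD, n = 3), 51.3 ± 1.10 in CAMK (n = 3) and 48.5 ± 8.40 in CX3CL1-ct (n = 6). Fgf12 came next in all 3 groups, and its libraries overlapped those of Fgf13 in CX3CL1-ct but not in WT or CAMK. In WT the levels then ran Fgfr1, Fgf14, Fgfr3, Fgfr2, Fgf9, Fgf1, Fgf2 and Fgf10. Neighbours in that WT order whose libraries overlapped were Fgf12 and Fgfr1, Fgf14 and Fgfr3, and Fgf2 and Fgf10. In CAMK Fgf14 took the place above Fgfr1, with overlapping libraries. The secreted ligands formed the low end, and Fgf2 stayed under an FPKM of 1 in 10 of 12 libraries, so it did not pass the filter and 9 of the 10 members were tested.

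**Figure D1:**
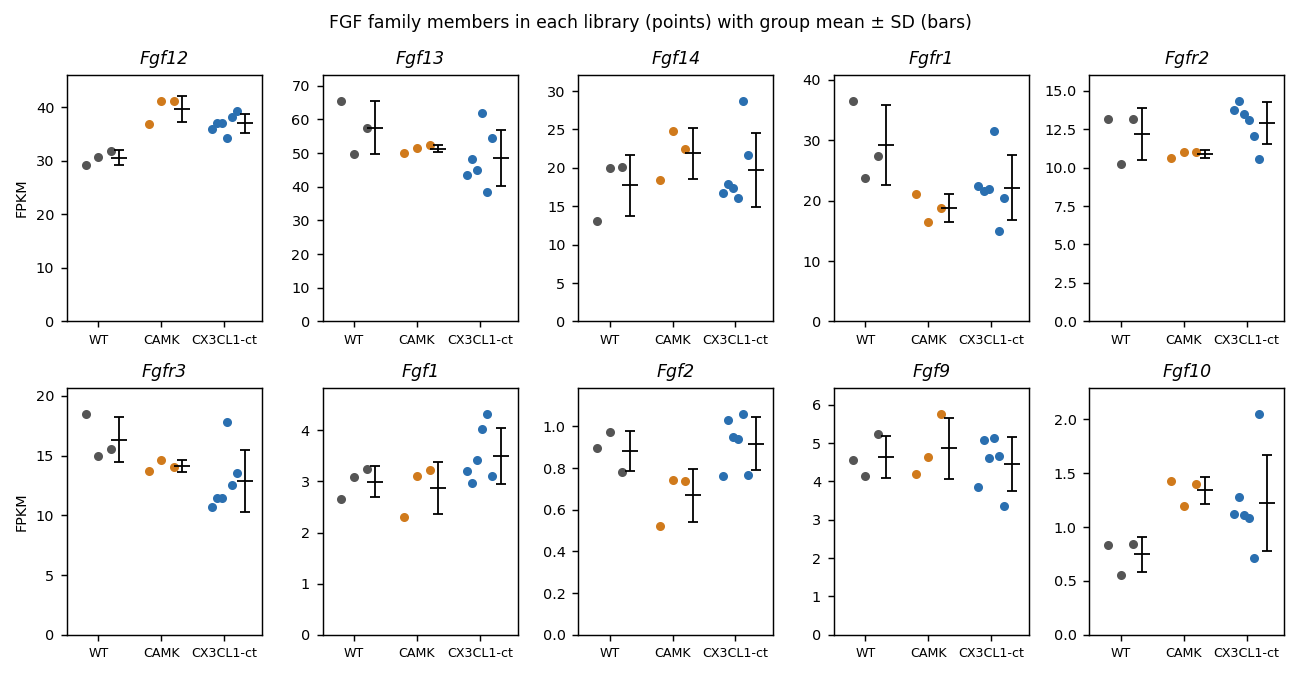
FPKM (vertical axes, starting at 0) of each of the 10 genes in the 12 libraries, by group; points are libraries, and the bar beside them is the group mean ± SD (n = 3 for WT and CAMK, n = 6 for CX3CL1-ct). All CAMK and CX3CL1-ct points of Fgf12 lie above the 3 WT points, and the CAMK points of Fgfr1 lie below the WT points.

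Fgf12 was the one member past the threshold when all 12 libraries were fitted together, a call that many alternatives ended. It lies on chr16:28160098-28753068 (minus strand; GENCODE M21, mm10), and its starts are spread over most of that span. The deposited table gives it the interval chr16:28160120-28445227, which holds 1 of its 6 annotated transcripts. The Fgf12 values below therefore belong to a model that leaves out its far starts and also the near start described below. Among the tested members, Fgf12 and Fgf10 were those whose CAMK libraries all lay above WT, as did 9.22 percent of all tested genes. Fgf10 was under 1 FPKM in every WT library and entered the test through the groups where it is high, so its separation is no support. Stretches before RefSeq starts of Fgf12 and Fgf10 (GRCm38.p6) are shown as a description, 5′ to 3′ on the strand of the gene. They are limited to bases that no annotated exon covers. The far start of Fgf12 (chr16:28753244-28753493, minus strand) lies 308016 bases outside the table's interval and the near one (chr16:28446278-28446325, minus strand) belongs to a start 848 bases outside it, and these are the outermost and innermost of the 4 Fgf12 windows in the table of promoters. The Fgf10 stretch is chr13:118714449-118714698 (plus strand), and its start lies 44908 bases inside the annotated gene and 19407 bases inside the table's interval for Fgf10, which holds 1 of 3 annotated transcripts.
Fgf12 far start: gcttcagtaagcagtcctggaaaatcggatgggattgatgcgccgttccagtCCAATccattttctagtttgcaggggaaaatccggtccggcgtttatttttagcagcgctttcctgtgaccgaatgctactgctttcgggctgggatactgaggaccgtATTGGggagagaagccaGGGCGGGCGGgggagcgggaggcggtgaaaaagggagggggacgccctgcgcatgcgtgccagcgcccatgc
Fgf12 near start: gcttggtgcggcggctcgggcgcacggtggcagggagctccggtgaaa
Fgf10: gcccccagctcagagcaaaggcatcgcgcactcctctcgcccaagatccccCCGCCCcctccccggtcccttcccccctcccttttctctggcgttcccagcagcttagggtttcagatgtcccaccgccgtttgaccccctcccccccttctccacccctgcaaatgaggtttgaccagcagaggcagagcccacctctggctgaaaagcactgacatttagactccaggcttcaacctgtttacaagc
Capitals mark the motifs searched on both strands, GGGCGG (the GC box) and CCAAT. The TATA box TATAAA was searched as well, and its letters are in none of the 3 stretches. The far Fgf12 stretch held GGGCGG at 2 overlapping positions and CCAAT at 2 positions, the Fgf10 stretch held GGGCGG once, and the near Fgf12 stretch held none. That near stretch stops at base 28446278, short of its start at 28446075, because an annotated exon covers bases between them. The bases next to that start were therefore not searched, and the lack of motifs says nothing about them. Among 32851 RefSeq windows of 250 bases, 32.7% held GGGCGG, 33.8% held CCAAT and 12.4% held TATAAA; over 48 bases the shares were 4.76%, 6.69% and 2.47%.

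Of the 3 intracellular FGFs, Fgf12 was higher in both transgenic groups than in WT. Its FPKM was 29.1, 30.7 and 31.9 in WT 1 to 3, and 36.8, 41.1 and 41.2 in CAMK 1 to 3. In the 6 CX3CL1-ct libraries it ran from 34.3 through a median of 37.1 to 39.3. Every library with the driver lay above every WT library, while CAMK and CX3CL1-ct overlapped. Fgf12 rose in CAMK against WT by 0.36 log2 (SE 0.07; ratio 1.29; limma, adjusted p = 0.0445) and was the one member of 9 past the threshold, in a comparison where 0.358 percent of all tested genes passed it and 0.0848 percent passed it upward. Its difference in CX3CL1-ct against WT was 0.27 log2 (SE 0.06; limma, adjusted p = 0.0802), and 0.454 percent of genes passed there. In CX3CL1-ct against CAMK its difference was -0.10 (95% interval -0.22 to 0.03; adjusted p = 0.812). The CAMK call lay close to the threshold and did not hold. It was lost without any 1 of WT 1, 2 or 3, CAMK 2 or 3, or CX3CL1-ct 1, 2 or 3 (limma, adjusted p from 0.0742 to 0.207), and when those last 3 were averaged into 1 (adjusted p = 0.119). Leaving out 1 library at a time, the difference itself ran from 0.33 to 0.42 log2. A fit of the 3 CAMK and 3 WT libraries alone, blocked by replicate number, gave an adjusted p of 0.0585. In CX3CL1-ct against WT the threshold was passed without CX3CL1-ct 4 (adjusted p = 0.0452).

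Marker levels of neighbouring tissues and of other cell types also differed between these groups, in both directions. The mean log2 level of 5 neocortex markers was 4.07 to 4.30 in WT, 4.64 to 5.17 in CAMK and 4.28 to 5.29 in CX3CL1-ct, and that of 7 meninges markers was 2.00 to 2.42, 2.49 to 2.72 and 2.64 to 3.43. In CX3CL1-ct against WT all 7 meninges markers had positive differences and 4 of them passed the threshold upward, as did 33 of the 16503 tested genes. The neocortex list did not move as one in CAMK against WT: 4 of 5 markers had positive differences and none of these passed, while Bcl11b fell from 48.9 ± 10.3 FPKM in WT (SD, n = 3) to 27.6 ± 3.66 in CAMK (n = 3; limma, adjusted p = 0.0397). In CAMK against WT the 5 thalamus markers had a median difference of 0.75 log2, with none past the threshold, and the level was highest in CAMK 2, CAMK 3 and CX3CL1-ct 5. All 7 striatum markers were negative against WT, with medians of -1.14 log2 in CAMK and -1.04 in CX3CL1-ct and none past the threshold. Their mean log2 level split the WT libraries, at 2.13 in WT 1 against 4.61 in WT 2 and 4.20 in WT 3, and was 4.13 in CX3CL1-ct 5. All 6 choroid plexus markers were negative too, with medians of -0.66 and -0.61, none past the threshold, and a WT range of 2.57 to 4.29. No marker of these lists was at 0 throughout a group. In bulk tissue fewer cells of a type and less RNA per cell cannot be told apart, and the part of these markers in the differences of Fgf12 and the other members was not tested.

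**Figure D2:**
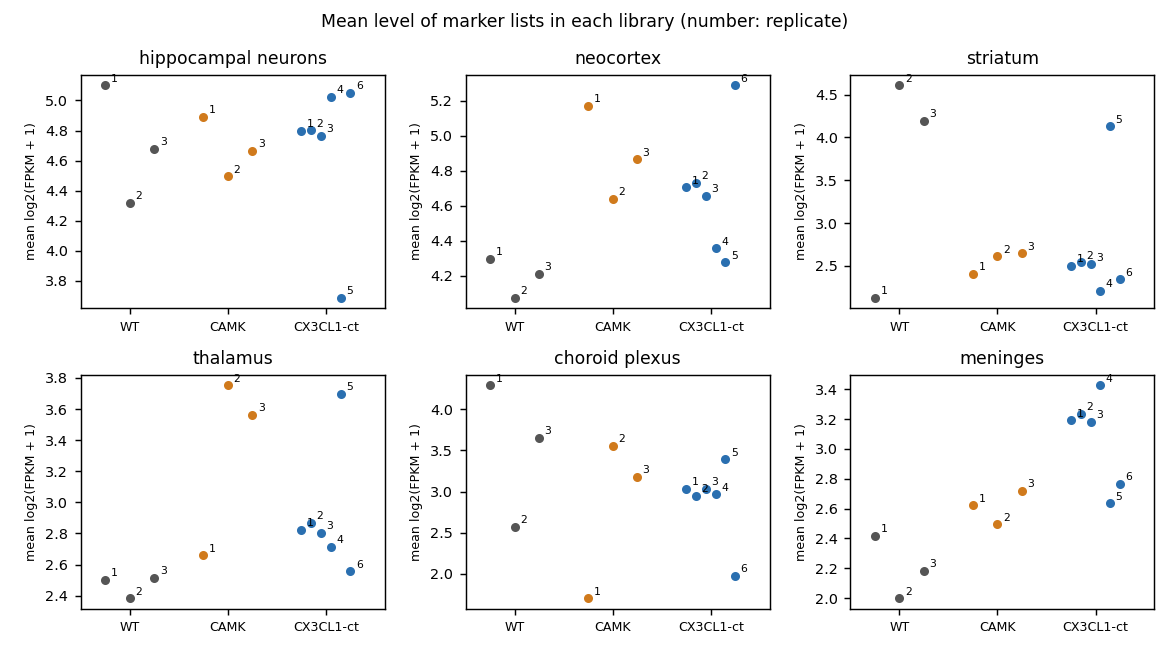
Mean log2(FPKM + 1) of 6 marker lists (vertical axes, which do not start at 0) in each library, by group, with the replicate number beside each point. Neocortex and meninges markers are lowest in WT except that CX3CL1-ct 5 (4.28) reaches the WT range for neocortex, and CX3CL1-ct 5 is lowest for hippocampal neurons (3.69).

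Fgf13 (chrX:59062145-59568071, minus strand), the most abundant member, did not pass the test in any comparison. It stood at 65.5, 49.7 and 57.4 FPKM in WT 1 to 3, at 50.1, 51.5 and 52.3 in CAMK 1 to 3, and between 38.3 and 61.8 with a median of 46.7 in CX3CL1-ct. The CAMK libraries had a coefficient of variation of 2.15%, against 13.7% for WT and 17.3% for CX3CL1-ct. Its difference was -0.15 log2 in CAMK against WT (95% interval -0.48 to 0.17) and -0.25 in CX3CL1-ct against WT (-0.53 to 0.03; limma, adjusted p = 0.464).

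Fgf14 (chr14:123977907-124677127, minus strand) varied most among the intracellular FGFs. Its FPKM was 13.1, 19.9 and 20.1 in WT 1 to 3 and 18.4, 24.9 and 22.4 in CAMK 1 to 3. In CX3CL1-ct it ran from 16.0 through a median of 17.6 to 28.7, with CX3CL1-ct 5 the highest of all 12 libraries and WT 1 the lowest. The groups overlapped in every comparison, and the difference in CAMK against WT was 0.30 log2 (95% interval -0.16 to 0.77; limma, adjusted p = 0.617).

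As shares of the summed FPKM of the 3 intracellular FGFs, Fgf12 made up 29.0% ± 1.79 in WT (SD, n = 3), 35.2% ± 0.315 in CAMK (n = 3) and 35.3% ± 2.59 in CX3CL1-ct (n = 6). Fgf13 made up 54.3% ± 5.84, 45.5% ± 1.92 and 46.0% ± 5.96. The sum itself was 106 FPKM in WT, 113 in the CAMK and 105 in the CX3CL1-ct group. These shares are given as a description, with no test.

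**Figure D3:**
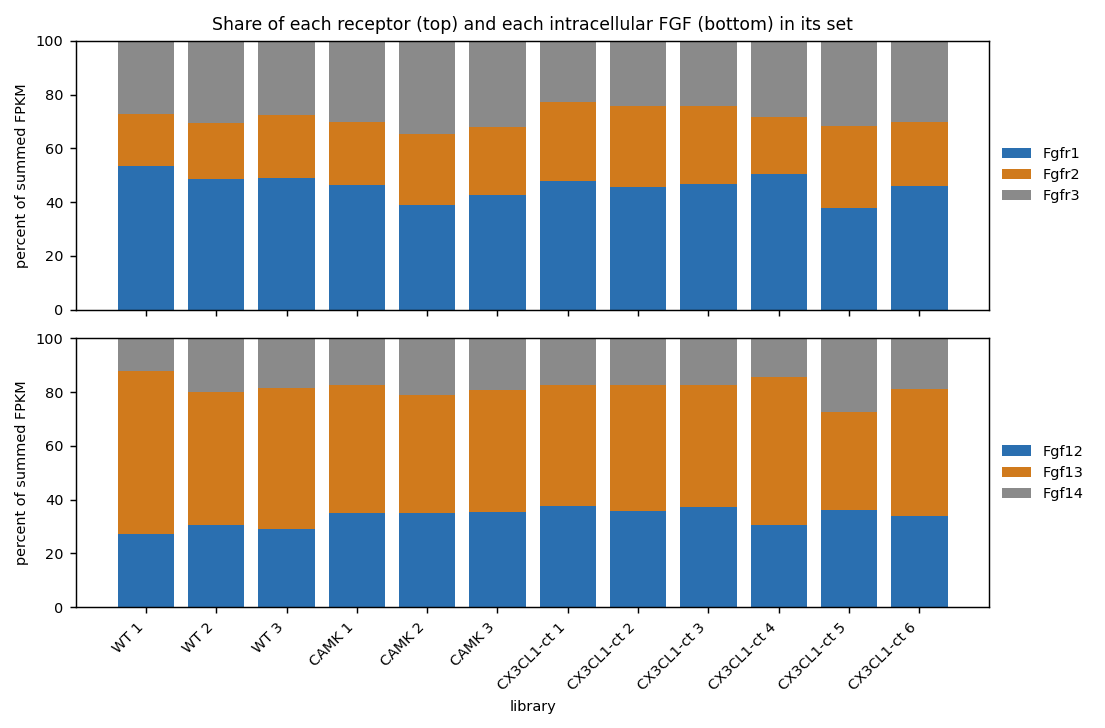
Percent of the summed FPKM (vertical axes) taken by Fgfr1, Fgfr2 and Fgfr3 (top) and by Fgf12, Fgf13 and Fgf14 (bottom) in each of the 12 libraries (horizontal axis); each bar adds up to the whole set. The Fgfr1 share is lowest in CX3CL1-ct 5 (37.9%) and CAMK 2 (39.0%), and the Fgf12 share is lowest in WT 1.

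Among the receptors, Fgfr1 (chr8:25513654-25575718, plus strand), a receptor of neural progenitors and neurons, showed the widest differences. It stood at 36.5, 23.7 and 27.3 FPKM in WT 1 to 3 and at 21.1, 16.4 and 18.8 in CAMK 1 to 3. In CX3CL1-ct it ran from 15.0 through a median of 21.8 to 31.5. All CAMK libraries lay below all WT libraries, whereas CX3CL1-ct overlapped both groups. The difference in CAMK against WT was -0.59 log2 (SE 0.21; ratio 0.662) and missed the threshold over all genes (limma, adjusted p = 0.287). With the replicate number of libraries 1 to 3 of all groups as a block, which leaves CX3CL1-ct 4 to 6 out, the same difference had an SE of 0.10 and an adjusted p of 0.0352, and in those 9 libraries without the block an adjusted p of 0.0718. With the block in only the CAMK and WT libraries it had an adjusted p of 0.0589. In CX3CL1-ct against WT the difference was -0.39 (95% interval -0.80 to 0.01; adjusted p = 0.422), and in CX3CL1-ct against CAMK it was 0.20 (-0.20 to 0.61; adjusted p = 0.900).

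Fgfr3 (chr5:33721674-33737068, plus strand), a receptor of ventricular zone progenitors and astrocytes, was lower than WT in most libraries of both transgenic groups. Its FPKM was 18.5, 15.0 and 15.5 in WT 1 to 3, and 13.7, 14.7 and 14.1 in CAMK 1 to 3. In CX3CL1-ct it was 10.7, 11.4 and 11.4 in libraries 1 to 3, and 17.8, 12.5 and 13.5 in libraries 4 to 6. CX3CL1-ct 4 was the one library of that group inside the WT range. In CX3CL1-ct against WT the difference was -0.33 log2 (SE 0.13; limma, adjusted p = 0.339), and with CX3CL1-ct 4 to 6 left out it was -0.50 with an adjusted p of 0.0133. Without CX3CL1-ct 4 alone the adjusted p was 0.0524. The libraries on which the larger difference rests, CX3CL1-ct 1 to 3, are the ones that were most alike, and with them averaged into 1 the difference was -0.24 (adjusted p = 0.644). The CAMK and WT libraries did not overlap, but the difference of -0.19 had a 95% interval of -0.51 to 0.14. Markers of radial glia and astrocytes had a mean log2 level of 5.17 to 5.27 in CAMK against 5.29 to 5.51 in WT and 5.17 to 5.55 in CX3CL1-ct. CX3CL1-ct 1 to 3, the lowest libraries for Fgfr3, stood at 5.31, 5.36 and 5.32, inside the WT range of these markers. In CAMK against WT 8 of these 9 markers had negative differences (median -0.15 log2), none past the threshold, and their part in the Fgfr3 and Fgfr1 values was not tested.

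Fgfr2 (chr7:130162451-133123350, minus strand), found in glial and choroid plexus cells among others, stood at 13.2, 10.2 and 13.2 FPKM in WT 1 to 3 and at 10.6, 11.0 and 11.0 in CAMK 1 to 3. The CX3CL1-ct libraries ran from 10.6 through a median of 13.3 to 14.3. In CX3CL1-ct against CAMK, where 0.0606 percent of tested genes passed, no member did; Fgfr2 had the smallest unadjusted p of the 9, at 0.0473, with a difference of 0.22 log2 (SE 0.10; limma, adjusted p = 0.775). By that unadjusted measure 1051 of the 16503 genes lay under 0.05, or 6.37 percent. Some exons of Fgfr2 overlap those of Ctbp2 on the same strand in the annotation, so its level is uncertain to that extent.

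Fgfr1 made up 50.3% ± 2.86 of the summed FPKM of the 3 receptors in WT (SD, n = 3), 42.8% ± 3.74 in CAMK (n = 3) and 45.8% ± 4.25 in CX3CL1-ct (n = 6). The receptor sum was 57.7, 43.8 and 47.9 FPKM in that order. Fgfr3 held a larger share than Fgfr2 in WT and CAMK, at 28.5% against 21.3% and 32.3% against 24.9%, while in CX3CL1-ct they stood at 27.0% ± 3.67 and 27.2% ± 3.95.

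**Figure D4:**
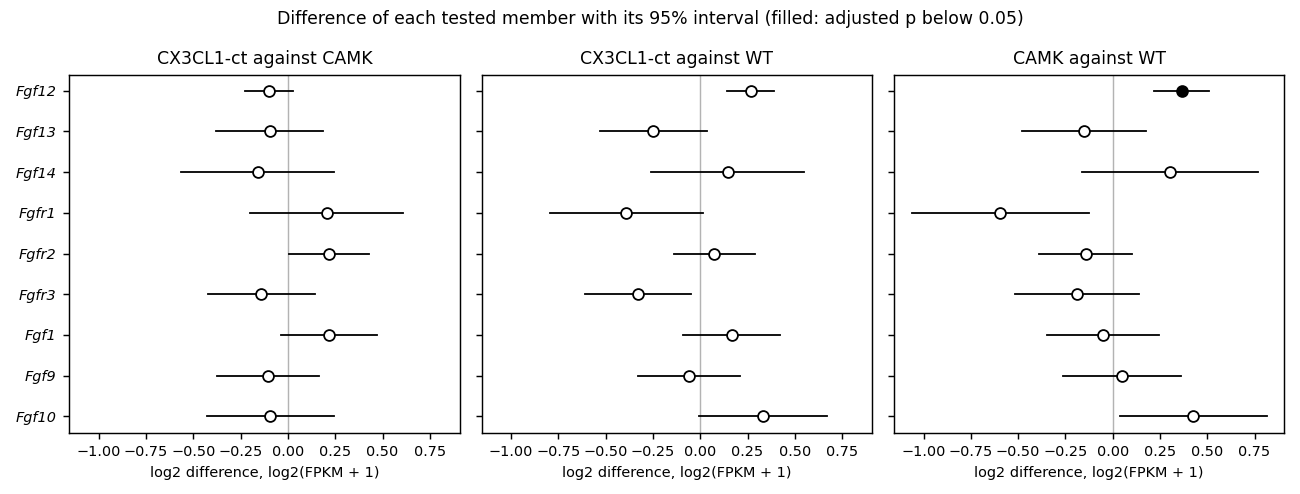
Difference between groups (horizontal axis, log2 of FPKM + 1; first group minus second) of the 9 tested genes in each comparison, with 95% intervals as lines; a filled point passed the adjusted threshold of 0.05. The one filled point is Fgf12 in CAMK against WT (0.36), and Fgfr1 there has the most negative value (-0.59).

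The secreted ligands were low, and none of the 3 that were tested passed in any comparison. Fgf9 (chr14:58070547-58112720, plus strand), a ligand made by neurons and known for acting on glia, was the highest of them, at 4.56, 4.15 and 5.24 FPKM in WT 1 to 3, at 4.19, 4.64 and 5.75 in CAMK 1 to 3, and between 3.36 and 5.12 with a median of 4.63 in CX3CL1-ct. The groups overlapped in every comparison, and the largest of the 3 differences was -0.11 log2 (95% interval -0.38 to 0.16) in CX3CL1-ct against CAMK.

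Fgf1, the acidic FGF, a ligand that binds all FGF receptors, stood at 2.66, 3.08 and 3.25 FPKM in WT 1 to 3 and at 2.29, 3.10 and 3.23 in CAMK 1 to 3. CX3CL1-ct ran from 2.96 through a median of 3.31 to 4.31, and the highest of its libraries were CX3CL1-ct 5 and CX3CL1-ct 4. The groups overlapped, and the difference in CX3CL1-ct against CAMK was 0.22 log2 (95% interval -0.04 to 0.47; limma, adjusted p = 0.780).

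Fgf10 (chr13:118669791-118792115, plus strand), a ligand known from branching organs and from early cortical progenitors, was near 1 FPKM and passed the filter through the transgenic libraries. It stood at 0.838, 0.556 and 0.846 FPKM in WT 1 to 3 and at 1.42, 1.20 and 1.40 in CAMK 1 to 3. CX3CL1-ct 6 was the highest of all libraries at 2.05, and CX3CL1-ct 5 at 0.711 lay inside the WT range. The CAMK libraries lay above WT without overlap, with a difference of 0.43 log2 (SE 0.18; limma, adjusted p = 0.360); the difference in CX3CL1-ct against WT was 0.33 (95% interval -0.01 to 0.67; adjusted p = 0.412). The neocortex marker list was also highest in CX3CL1-ct 6 (5.29) and, within that group, lowest in CX3CL1-ct 5 (4.28); its part in the Fgf10 values was not tested.

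Fgf2 (chr3:37348346-37410108, plus strand), the basic FGF, a mitogen of neural progenitors, stood at 0.898, 0.971 and 0.782 FPKM in WT 1 to 3 and at 0.524, 0.745 and 0.737 in CAMK 1 to 3. CX3CL1-ct ran from 0.760 to 1.06 around a median of 0.945. All CAMK libraries lay below both other groups, but the highest of them (0.745) was close to the lowest CX3CL1-ct library (0.760). Among the tested genes, which leave Fgf2 out, 8.80 percent lay below WT in CAMK without overlap. In CX3CL1-ct against CAMK 458 of the 16503 tested genes were higher without overlap. With no filter on low values the difference was -0.18 log2 (SE 0.09; limma, adjusted p = 0.592) in CAMK against WT and 0.20 (SE 0.08; adjusted p = 0.878) in CX3CL1-ct against CAMK. Exons of Fgf2 overlap those of Nudt6 on the opposite strand and of Gm43439 on the same strand in the annotation, and the table's interval for it, chr3:37312519-37579096, reaches beyond the gene on both sides, so its level is uncertain to that extent. The library kit keeps strand, but whether the authors' counting used it is not given in the sources used here, so reads of Fgf2 and Nudt6 may not be separated; the same holds for Fgf10, Fgf14, Fgfr1 and Fgfr3, which each overlap exons of another gene on the opposite strand.

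By counts, the members stood near the background of all genes in 2 comparisons. In CX3CL1-ct against CAMK 0 of 9 tested members had libraries without overlap, against 3.30 percent of genes, and their median difference was -0.10 log2 against 0.04 over all genes. In CX3CL1-ct against WT it was 1 of 9 (Fgf12, higher), against 6.04 percent in either direction and 4.67 percent higher, with medians of 0.07 and 0.04. In CAMK against WT, where 18.0 percent of genes had no overlap, Fgf12 was higher, as 9.22 percent of genes were, and Fgfr1 and Fgfr3 were lower, as 8.80 percent were. Fgf10 was higher there as well, but it was under 1 FPKM in every WT library and entered the test through the groups where it is high, so it is not counted as support. The medians there, Fgf10 included, were -0.05 over the members and 0.00 over all genes. The comparisons with WT share its 3 libraries, so the like values in them are not independent.

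Some members varied together from library to library. Over the 12 libraries Fgfr1 and Fgf14 had a Pearson correlation of -0.87, and -0.89 in deviations from the group means. Fgfr1 and Fgf12 stood at -0.82 and -0.74, and Fgf13 went with Fgfr3 (0.84 and 0.79) and with Fgfr1 (0.77 and 0.81). WT 1 and CX3CL1-ct 4 combined high Fgfr1, Fgf13 and Fgfr3 with low Fgf14, and CX3CL1-ct 5 had the lowest Fgfr1 and Fgf13 with the highest Fgf14. These correlations are a description: the points share their libraries and groups, CX3CL1-ct 1 to 3 are close to each other, and CX3CL1-ct 5 is also the library with the lowest level of hippocampal neuron markers.

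**Figure D5:**
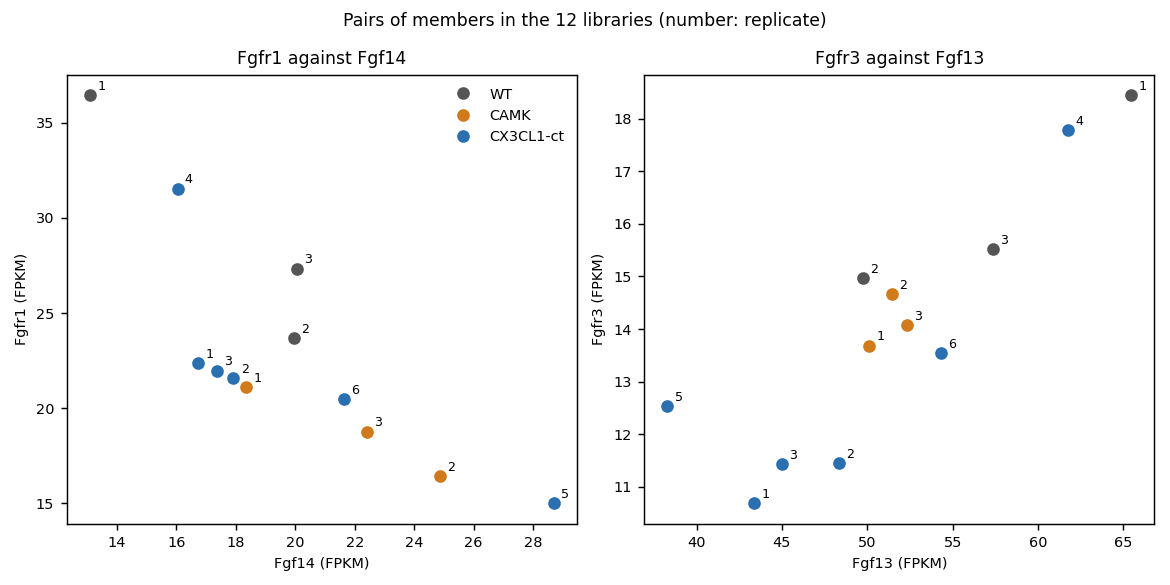
Fgfr1 against Fgf14 (left) and Fgfr3 against Fgf13 (right), in FPKM on axes that do not start at 0; each point is 1 of the 12 libraries, coloured by group, with its replicate number. Fgfr1 falls as Fgf14 rises (Pearson r of -0.87), and Fgfr3 rises with Fgf13 (0.84).

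The genes whose levels followed each member most closely over the 12 libraries were found among 9104 genes with a mean FPKM of at least 5, by Pearson correlation. For Fgf12 these were Klf6 (0.98), with means of 22.9 FPKM in WT, 33.5 in the CAMK and 30.9 in the CX3CL1-ct libraries, and Atp8a2 (0.97). For Fgfr1 they were Icam5 (0.97), at 22.9, 14.3 and 16.8 FPKM in the same order, and Zhx2 (0.96). For Fgf10 they were Pak7 and Osbpl1a, both at 0.97; Osbpl1a stood at 29.9, 56.9 and 46.0 FPKM. Fgf14 was followed by Ylpm1 and Ttbk2, Fgf13 by Cadps2 and Epha5, Fgfr3 by Adgra1 and Tbc1d24, Fgfr2 by Sh3bgrl2 and Emp2, and Fgf1 by Pex7 and Rcn2. The closest match was weakest for Fgf9, at 0.81 with Rpn1 and 0.80 with Mut.

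The other genes of the pathway were described by lists. Of 14 other secreted FGFs 13 did not pass the filter. The one tested was Fgf18, at 2.38 ± 0.336 FPKM in WT (SD, n = 3), 1.75 ± 0.378 in CAMK (n = 3) and 2.59 ± 0.480 in CX3CL1-ct (n = 6), with a difference of 0.38 log2 in CX3CL1-ct against CAMK (limma, adjusted p = 0.725). The remaining intracellular FGF, Fgf11, had 8.26 ± 0.152, 7.20 ± 0.573 and 7.67 ± 0.860 FPKM in these groups. Its CAMK libraries lay below WT without overlap (-0.18 log2, limma, adjusted p = 0.509), as did 8.80 percent of all tested genes.

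Among 12 other receptors, co-receptors and FGF-binding proteins, 10 were tested and none passed in any comparison. Without overlap, 5 of the 10 lay above WT in CAMK, where 9.22 percent of all tested genes did; 1 of the 5, Fgfbp1, was under 1 FPKM in every WT library and entered the test through the other groups. Cdh2, the adhesion protein N-cadherin, which binds FGF receptors, was at 38.3 ± 1.83 FPKM in WT, 47.7 ± 2.21 in the CAMK and 47.1 ± 3.59 in the CX3CL1-ct group, a difference of 0.31 log2 in CAMK against WT (limma, adjusted p = 0.123) and 0.29 in CX3CL1-ct against WT (adjusted p = 0.0969). Fgfbp1, a protein that releases FGFs from the matrix, was at 0.488 ± 0.0895, 1.01 ± 0.206 and 1.48 ± 0.499 FPKM, and its difference in CX3CL1-ct against WT was 0.71 (adjusted p = 0.0988). Both lay above WT without overlap in each comparison with it, and neither passed the threshold. In CX3CL1-ct 4.67 percent of all tested genes lay above WT without overlap.

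Of 20 heparan sulphate proteoglycans and their enzymes none passed. In CAMK against WT 15 of the 20 had positive differences, as had 8340 of the 16503 tested genes. Without overlap, 5 lay above WT and 1 below it, beside shares of 9.22 and 8.80 percent over all tested genes. Ext1, an enzyme that lengthens heparan sulphate chains, was at 10.2 ± 0.741 FPKM in WT, 12.4 ± 0.429 in the CAMK and 13.1 ± 1.49 in the CX3CL1-ct group. Gpc5, a glypican, was at 9.26 ± 1.80, 15.2 ± 1.32 and 12.0 ± 3.29 FPKM, with a difference of 0.67 log2 in CAMK against WT (limma, adjusted p = 0.213).

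Of 18 genes of signal transduction below the receptors none passed, and 16 of the 18 had positive differences in CX3CL1-ct against WT, where 10350 of the 16503 tested genes did; their median was 0.08 log2. Mapk3, the kinase ERK1, was at 34.4 ± 3.35 FPKM in WT, 42.4 ± 5.57 in the CAMK and 44.0 ± 3.16 in the CX3CL1-ct group (0.35 log2 in CX3CL1-ct against WT; limma, adjusted p = 0.137). Plcg1, a phospholipase recruited by the receptors, was at 24.6 ± 0.377, 26.7 ± 2.18 and 28.4 ± 1.68 FPKM. In CAMK 2 of the 18 genes lay above WT and 1 below it without overlap, beside 9.22 and 8.80 percent of all tested genes.

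Of 14 target genes and feedback inhibitors none passed. In CAMK against WT 9 of the 14 had negative differences, as had 8163 of the 16503 tested genes, with a median of -0.16 log2 against 0.00 over all genes. Without overlap, 4 lay below WT, where 8.80 percent of all tested genes did. Etv1, an ETS transcription factor, was at 8.16 ± 0.687 FPKM in WT, 6.26 ± 0.183 in the CAMK and 9.63 ± 1.82 in the CX3CL1-ct group. All 6 CX3CL1-ct libraries of Etv1 lay above the CAMK libraries, with a difference of 0.53 log2 (limma, adjusted p = 0.697). In that comparison 458 of the 16503 tested genes were higher without overlap. Ccnd1, the cell cycle protein cyclin D1, was at 11.5 ± 0.244, 9.80 ± 0.376 and 10.4 ± 0.670 FPKM.

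Of 10 partners of the intracellular FGFs found in the data, sodium channels, Ank3 and the scaffold Mapk8ip2, 9 were tested and none passed. In CAMK against WT 3 of the 9 lay above WT without overlap, as did 9.22 percent of all tested genes. In CX3CL1-ct against CAMK all 9 had negative differences, as had 6071 of the 16503 tested genes, with a median of -0.06 log2 against 0.04 over all genes. Scn2a1, a sodium channel of axons, was at 56.2 ± 3.42 FPKM in WT, 70.3 ± 2.05 in the CAMK and 62.7 ± 5.78 in the CX3CL1-ct group (0.32 log2 in CAMK against WT; limma, adjusted p = 0.152). Mapk8ip2, a scaffold that binds intracellular FGFs, was at 33.1 ± 3.50, 38.2 ± 4.06 and 36.4 ± 3.56 FPKM.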

How the data were processed

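Hippocampal RNA-seq of 12 libraries (3 WT, 3 CAMK, 6 CX3CL1-ct) was used as deposited. The values are FPKM per gene, made by the authors; TopHat, Bowtie, Cufflinks and Cuffdiff and the build mm10 are named in the submitters' processing notes, without versions, and the annotation and strand setting are not given in the sources used here. Libraries were paired-end from a stranded total RNA kit, per the labels' protocols. Read counts were not used; depth was estimated from the value of 1 fragment in single-exon genes of 500 to 5000 nt with an assumed fragment of 180 nt, and it limits precision for the members near 1 FPKM.

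Groups were taken from the sample titles. Genes that reached an FPKM of 1 in 3 or more libraries (16503 of 29454) were fitted on log2(FPKM + 1) with limma 3.58.1 in R 4.3.3 (trended eBayes, all libraries, 3 group means), p-values were adjusted by Benjamini-Hochberg over all tested genes and the threshold was 0.05. The script was tested on simulated data. Gene positions came from GENCODE M21, and RefSeq (GRCm38.p6) held promoter windows for 8 of the 10 members.

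Members and gene lists were chosen with earlier results of these data known. Named genes were the 10 members, from each pathway list those past the threshold or else the 2 with the smallest unadjusted p, and per member the 2 genes of highest correlation. Alternatives changed the pseudocount, filter, scaling, prior, samples in the fit and the replicates used, and added a replicate block; libraries 1 to 3 without the block, the block in only the CAMK and WT libraries, and CX3CL1-ct 1 to 3 averaged, were chosen after seeing the data. The labels give replicate numbers without saying what they mark. Deviations from the group means in same-numbered CAMK and WT libraries had r of 0.236, 0.163 and 0.100 for numbers 1, 2 and 3. Libraries of unlike number were not compared, so these values cannot show that the numbers mark pairs. Blocked values are given as an alternative beside the CAMK against WT results whose call they change. The main fit has no block. For CX3CL1-ct libraries r was of mixed sign, both beside CAMK (0.110, -0.130 and -0.0912) and beside WT (0.114, -0.0622 and 0.0106). The block over libraries 1 to 3 of all groups still ties them to the same numbers.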

Additional observations from a re-analysis of the deposited data

Results flagged for a closer look

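Among the 22 genes tested for libraries standing apart within CX3CL1-ct, 3 pathway genes had 1 library far from the other 5; chance gives such a gap in about 1 in 20 groups. Gpc5 was highest in CX3CL1-ct 6, at 18.2 FPKM against 8.40 to 12.1 in the others. Mapk3 was lowest in CX3CL1-ct 5, at 37.9 FPKM against 43.8 to 46.8, and Plcg1 was lowest in the same library, at 25.2 against 28.2 to 29.8. CX3CL1-ct 5 was also the library with the lowest level of hippocampal neuron markers, and its part in these values was not tested. No member of the family was among the 3.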

How the results depend on the processing

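Of 600 recomputed member differences (27 differences under up to 23 alternatives, less those a filter removed), 574 kept their direction and their side of the threshold, 12 lost the call, 5 gained it and 9 reversed; the cause was not tested. All 12 losses were Fgf12 in CAMK against WT, where members past the threshold went from 1 to 0 with FPKM of at least 1 in all 12 libraries (adjusted p = 0.0542), with only the 2 groups fitted (0.141), with CX3CL1-ct 1 to 3 averaged (0.119), and to between 0 and 1 when 1 library was left out. The reversals, in log2, were Fgf14 in CX3CL1-ct against WT in libraries 1 to 3 with or without the block (-0.0053) and without WT 1 (-0.047; range leaving out 1 library -0.047 to 0.24), Fgfr2 there without WT 2 (-0.038; range -0.038 to 0.13) and Fgf9 there without WT 3 (0.016) and without CX3CL1-ct 6 (0.0040; range -0.12 to 0.016). In CAMK against WT they were Fgf9 without WT 2 (-0.016) and without CAMK 3 (-0.058; range -0.058 to 0.13) and Fgf1 without CAMK 1 (0.061; range -0.12 to 0.061).

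With the replicate block in only the CAMK and WT libraries, 0 members (Fgf12 at an adjusted p of 0.0585) and 112 genes passed in CAMK against WT. With the replicate block in libraries 1 to 3 of all groups, members past the threshold were 2 in CAMK against WT (Fgfr1 and Fgf12) and 2 in CX3CL1-ct against WT (Fgf12, adjusted p = 0.0386, and Fgfr3, 0.0325; 1 without the block, Fgfr3), and 0 to 1 there when 1 library was left out; it changed no other member's call. Genes past the threshold with the block were 176 in CX3CL1-ct against CAMK, 541 in CX3CL1-ct against WT and 484 in CAMK against WT, and in the same 9 libraries without the block 191, 518 and 426, against 10, 75 and 59 in all libraries.

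Other alternatives moved these counts too. In CX3CL1-ct against CAMK 0 genes passed with FPKM of at least 1 in all 12 libraries. In CX3CL1-ct against WT the counts were 144 with no filter, 23 with that stricter filter, 38 with only the 2 groups, 28 with CX3CL1-ct 1 to 3 averaged and 26 to 158 leaving out 1 library. In CAMK against WT they were 123 with no filter, 34 with the stricter filter, 26 averaged and 21 to 153 leaving out 1 library. Depth limits Fgf2 and Fgf10, near 1 FPKM.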
